A study of Mus musculus with 24 samples.

Results

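The comparison described here sets the whole night against the whole day in mouse heart. The animals were wild-type C57Bl/6 males aged 8 weeks, with lights on for 12 h and off for 12 h each day. All 24 arrays of the series entered it: 12 night arrays, 4 each at zeitgeber times ZT15, ZT19 and ZT23 (hours after lights-on), and 12 day arrays, 4 each at ZT03, ZT07 and ZT11. The measure is the mean of the 3 night group means minus the mean of the 3 day group means, so a positive difference means a higher value at night. All animals shared genotype, sex, age and light cycle, and no treatment is named in the labels. The tissue is labelled myocardium, from hearts that were snap frozen, and the cRNA hybridised to each array was made from 500 ng of total RNA. The labels call the 4 arrays of a time point biological replicates.

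Mice are active and feed mostly at night, so the night arrays cover the active phase and the day arrays the rest phase. Heart cells hold a circadian clock in which CLOCK and BMAL1 activate genes of their own repressors, and body temperature, feeding, hormones and autonomic tone also differ between the phases. A difference between night and day has the same form whichever of these it comes with, and in this design light, clock, feeding and activity cannot be told apart. The arrays cover a single cycle.

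Each deposited value was read as a log2 difference from the probe set's own median over the 24 arrays, so expression levels are not kept and genes cannot be ranked by level. For the same reason the labelled tissue could be checked only for movement of its markers, not for their presence. Of 34351 probe sets, 23521 named a single gene, and their means gave 22180 genes. Array medians lay between -0.00223 and 0.00731, and the SD over all probe sets on an array between 0.103 and 0.171. ZT15 replicate 1, ZT23 replicate 4 and ZT07 replicate 4 had the 3 highest SDs. No batch is named in the labels, and one shared by the arrays of a time point cannot be told apart from time.

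Night and day differed in 973 of 22180 genes (4.39%) in limma's moderated test at a Benjamini-Hochberg adjusted p below 0.05. At night 420 genes (1.89%) were higher and 553 (2.49%) lower, and 3642 genes had an unadjusted p below 0.05. The differences were small. Their median was 1.15-fold among the higher genes and 1.14-fold among the lower ones, 95 higher and 120 lower genes reached 1.2-fold, and 11 higher and 13 lower genes reached 1.5-fold. Only Ppbp, the gene of a platelet chemokine, was at least 2-fold higher, and only Nr1d1, the gene of the clock repressor REV-ERB alpha, at least 2-fold lower. Protein-coding genes made up 928 of the 973. Without the 3 arrays of highest SD, 779 of the 973 genes were called again and 194 were not. Of the called genes named below, those not called again were Adgre1, Ago1, Ankrd1, Arntl, Atg7, Bag3, C1qa, Cacna1c, Cox6a2, F2rl2, Itgb3, Klf4, Mir130b, Mir677, Myc, Nr4a1, Nrgn, Per1, Pf4, Pi16, Rgs18, Stk26, Tbc1d4, Timd4 and Xbp1. Their adjusted p was then between 0.0506 (Atg7) and 0.158 (Cacna1c).

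The rankings by size and evenness, here and below, leave out predicted genes, such as those with symbols of Gm and digits or ending in Rik. The largest differences in the lower direction after Nr1d1 were those of Pdk4, Ucp3, Nr4a1, Lncpint, Nr1d2, Tcap, Txnip and Scin, all between 1.60-fold and 1.91-fold. After Ppbp, the largest in the higher direction were those of Egln3 (1.71-fold), Hspa1b (1.67-fold), Ceacam1 (1.57-fold), Cry1 (1.54-fold), Angptl7 (1.54-fold), Ctla2a (1.53-fold) and Ier3 (1.53-fold). Several of them have known roles in fuel choice (Pdk4, Ucp3 and Txnip), oxygen sensing (Egln3), heat shock (Hspa1b) and the clock (Nr1d2 and Cry1).

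A stricter description asked in which genes every night array lay on the same side of every day array. This held for 15 genes (0.0676% of all), 4 higher and 11 lower at night, and all 15 were also called by the test. Both draw on the same values of the same arrays, so the calls are no separate support. Because each probe set's median over the arrays is 0, the gap between the phases in such a gene lies close to 0.

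Nr1d1 had the widest gap. Its 12 day values ran from 0.131 through a median of 0.474 to 1.31, and its 12 night values from -1.69 through -1.03 to -0.131. The phases did not overlap, and the lowest values were at ZT19. The difference was -1.58 ± 0.08 (SE, 12 arrays per phase), a 2.98-fold lower value (adjusted p = 1.46e-10). Throughout, SE and adjusted p rest on the spread among the arrays of a time point, not on the spread over a phase.

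Srsf5, the gene of a serine- and arginine-rich splicing factor, came next. Its day values ran from 0.103 through 0.365 to 0.805 and its night values from -0.490 through -0.302 to -0.103. Every night array was lower than every day array, with a difference of -0.64 ± 0.05 (1.56-fold, adjusted p = 7.17e-08).

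The other 9 lower genes without overlap were Osbp, Tcp11l2, Klhl38, Rnf207, Nabp1, Synj2, Fbxo32, Insr and Chd2. Osbp encodes an oxysterol-binding protein that carries sterol between membranes, Nabp1 a single-stranded DNA-binding protein, Synj2 a phosphoinositide phosphatase, and Chd2 a chromatin remodeller. They were between 1.16-fold (Insr) and 1.52-fold (Nabp1) lower. The gap between the phases was 0.0914 in Osbp but only 0.00228 in Fbxo32, 0.000616 in Insr and 0.000232 in Chd2. In Fbxo32, Insr and Chd2 the phases thus almost touched. Chd2 was not covered by the rule for named genes and was chosen after its values were seen.

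The 4 higher genes without overlap were Cry1, Hspa1a, Ppbp and Mmrn1. Cry1 encodes a repressor of CLOCK and BMAL1, and its day values ran from -0.683 through -0.350 to -0.0581 against night values from 0.0581 through 0.208 to 0.490. All night arrays were above all day arrays, and the difference was 0.63 ± 0.05 (1.54-fold, adjusted p = 6.51e-08). Mmrn1, which encodes multimerin 1 of platelets and endothelium, was 1.21-fold higher at night (0.28 ± 0.04, adjusted p = 9.20e-05), with similar differences of 0.29, 0.32 and 0.23 at the 3 pairs of opposite times.

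**Figure D1:**
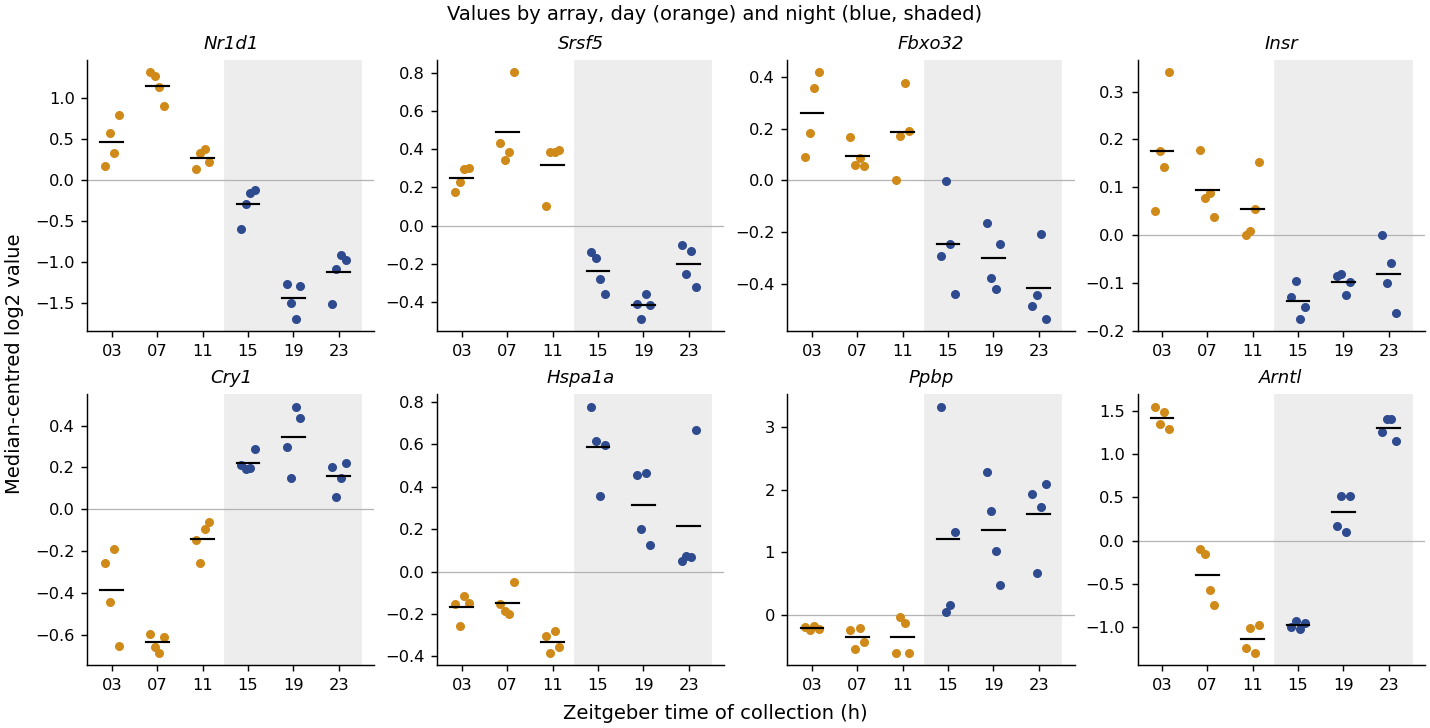
Median-centred log2 value on the y axis against zeitgeber time of collection (h) on the x axis for 8 genes. Each point is 1 array (day orange, night blue on a shaded ground) and the black line is the mean of the 4 arrays of a time point. In Nr1d1, Srsf5, Fbxo32, Insr, Cry1, Hspa1a and Ppbp the night points do not overlap the day points, though in Fbxo32 and Insr they almost touch. In Arntl both phases span almost the same range, with its highest points at ZT03 and ZT23.

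The night minus day difference is the mean of 3 differences between times 12 h apart: ZT15 minus ZT03, ZT19 minus ZT07 and ZT23 minus ZT11. A moderated F test asked whether these 3 differ from each other. They did in 645 genes (2.91% of all), of which 163 were also among the 973. Of the 973 genes, 750 had the sign of their mean difference at all 3 pairs (311 higher and 439 lower) and 223 did not. A difference among the 3 night times was found in 252 genes (1.14%), 74 of them among the 973, and among the 3 day times in 322 genes (1.45%), 94 of them among the 973. In 843 of the 973 genes neither test was passed, which leaves differences below the reach of 4 arrays per time point undetected. Of the genes higher at night, 136 had their highest mean at ZT15, 186 at ZT19, 97 at ZT23 and 1 in the day, at ZT03. Of the genes lower at night, 225 had it at ZT03, 161 at ZT07 and 167 at ZT11. The genes were chosen by the means of these same groups. The phase of the highest mean and the shared signs at the 3 pairs therefore follow largely from the choice.

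The most even differences were those of Osbp (-0.36, -0.34 and -0.39 at the 3 pairs), Ago1 (-0.23, -0.21 and -0.24), Kdm1a (-0.16, -0.15 and -0.16), Tbc1d15, Bod1l and Marchf8 among lower genes. Ago1 encodes an Argonaute protein that binds microRNAs, and Kdm1a a histone demethylase. Among higher genes they were those of Cd226 (0.45, 0.45 and 0.46), Ctla2a (0.57, 0.60 and 0.67), Tubb1 (0.27, 0.29 and 0.25), Rgs18 (0.39, 0.34 and 0.39), Stk26 and Fbxw20. In 4 of them the evenness depended on ZT15 replicate 1: without it the first pair difference was 0.18 in Cd226, 0.17 in Rgs18, 0.13 in Tubb1 and 0.40 in Ctla2a. Tubb1 encodes the platelet beta-tubulin, and Rgs18 a regulator of G protein signalling abundant in platelets. Some of these calls rest on single arrays: leaving out 1 array ended the call of Marchf8 for 17 of the 24 arrays, Stk26 was lost without any of 13 and Rgs18 without any of 10, and Ago1 without ZT03 replicate 3.

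The most uneven differences included several in which the sign turned within the phase. Arntl, the gene of BMAL1, had values of -2.40, 0.72 and 2.44 at the 3 pairs and a mean difference of 0.25 ± 0.07 (adjusted p = 0.0432). Its day values ran from -1.30 through -0.364 to 1.55 and its night values from -1.02 through 0.344 to 1.41. The phases overlapped almost fully, and leaving out any of 15 of the 24 arrays lost the night minus day call. Herpud1, an endoplasmic reticulum stress gene, had 1.04, 0.30 and -0.67, and Slc41a3, of a magnesium transporter family, had -1.59, -0.46 and 0.92. Sox4, Slc43a3, Lonrf1, Slc25a36 and Fmo2 were uneven as well (adjusted p between 7.37e-12 and 1.36e-06 for these and the 2 genes before them).

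**Figure D2:**
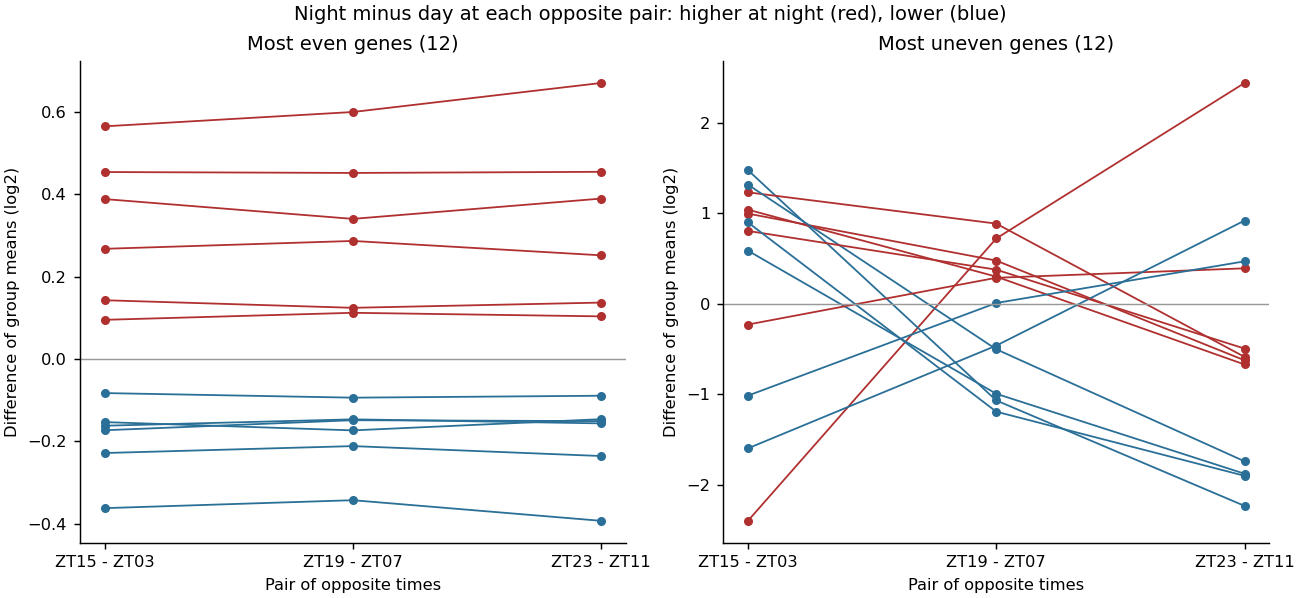
Difference of group means (log2, y axis) at each pair of opposite times (x axis) for the 12 most even genes (left) and the 12 most uneven genes (right) among the called genes. Predicted genes were left out. Each line is 1 gene, red if higher and blue if lower at night; the lines on the left run flat and those on the right all cross 0.

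The core clock list showed both forms. Of 17 measured members 3 were higher at night (Cry1, Nfil3 and Arntl) and 7 lower (Nr1d1, Nr1d2, Dbp, Per1, Ciart, Per3 and Bhlhe41), and the median difference over the list was -0.04, against 0.002 over all genes. The called share was 58.8%, against 4.39% over all genes. Per2 and Csnk1d had no probe set of a single gene. The clock list was chosen with earlier results of these data known.

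Among the activators, Arntl is described above. Its partners Clock (0.04 ± 0.04) and Npas2 (-0.00400 ± 0.070) did not pass the test. Both differed strongly between the pairs, from -0.81 to 0.91 in Clock and from -0.77 to 0.82 in Npas2 (adjusted p of unevenness = 1.90e-09 and 1.22e-05).

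Among the repressors of Arntl, Nr1d1 was lower at night at all 3 pairs (-0.76, -2.58 and -1.38). Nr1d2, the gene of REV-ERB beta, was 1.69-fold lower (-0.76 ± 0.06, adjusted p = 1.69e-07) but was higher at ZT15 than at ZT03 (0.59) and lower at the other pairs (-0.99 and -1.88). Rora, an activator at the same sites, did not pass the test (-0.04 ± 0.04, adjusted p = 0.721).

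Of the PER and CRY repressors, Cry1 was higher at night at all 3 pairs (0.61, 0.98 and 0.30). Per1 was 1.52-fold lower (-0.60 ± 0.15, adjusted p = 0.0190) and Per3 1.24-fold lower (-0.31 ± 0.05, adjusted p = 0.00110), each with a positive difference at ZT15 against ZT03 (1.2 and 1.32). Without the 3 arrays of highest SD the Per1 call was lost. Cry2 did not pass the test (0.03 ± 0.05, adjusted p = 0.836), and its pairs ran from 0.58 to -0.53. Ciart, a further repressor of CLOCK and BMAL1, was 1.38-fold lower and Bhlhe41 (DEC2) 1.22-fold lower, while Bhlhe40 (DEC1) did not pass (-0.19 ± 0.06, adjusted p = 0.0877).

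Of the factors that bind D-box sites, the repressor Nfil3 was 1.37-fold higher at night (0.45 ± 0.04, adjusted p = 2.31e-06). The activator Dbp was 1.52-fold lower (-0.61 ± 0.06, adjusted p = 4.35e-06), with pair differences of 1.48, -1.07 and -2.23. Tef (0.01 ± 0.03) and Hlf (0.09 ± 0.05), relatives of Dbp, did not pass the test and were uneven.

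The heat shock list held the most genes higher at night of any pathway list. Heat shock proteins fold other proteins, and their genes are induced by heat and other stress through HSF1, which binds repeats of the letters GAA and TTC. Of 25 measured members 12 were higher and 0 lower, with a median difference of 0.16 against 0.002 over all genes. This is a called share of 48%, against 4.39% over all genes. In 23 of the 25 the difference was positive. The count was 12 without the 3 arrays of highest SD and 10 to 13 when each array was left out.

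The inducible HSP70 genes led the list. In Hspa1a the day values ran from -0.383 through -0.194 to -0.0483 and the night values from 0.0483 through 0.405 to 0.778. The phases did not overlap, and the difference was 0.59 ± 0.06 (1.5-fold, adjusted p = 7.53e-06). In Hspa1b the day values ran from -0.575 through -0.446 to 0.0442 and the night values from -0.207 through 0.423 to 0.867, with 11 of 12 night arrays above all day arrays. Its difference was 0.74 ± 0.10 (1.67-fold, adjusted p = 0.000122). Both genes were highest at ZT15. Their sequences are close to identical, so the probe sets may not tell them apart.

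Other cytosolic chaperones followed. Hspa8, the constitutive HSP70, was 1.34-fold higher, Hsp90aa1, the inducible HSP90, 1.29-fold, and the nucleotide exchange factor Hsph1 (HSP110) 1.35-fold (0.43 ± 0.05, adjusted p = 4.50e-05). Of the co-chaperones, Chordc1 was 1.35-fold higher (0.44 ± 0.05, adjusted p = 2.16e-05), Dnajb1 1.28-fold, Dnajb5 1.25-fold, Stip1 1.15-fold, Bag3 1.13-fold and Ahsa2 1.12-fold, and the small heat shock protein Hspb1 1.18-fold. Hspb6, Hspb7, Hspb8, Cryab, Hspa4, Hspa4l and the mitochondrial pair Hspd1 and Hspe1 were among the 13 that did not pass.

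The promoters of 4 of these genes are shown because they moved together and hold the heat shock element searched for. Each runs from 250 bases before the start to 50 after it (RefSeq, GRCm38.p6), 5′ to 3′ on the gene's strand, with each match in capitals. The element was searched as GAANNTTC or TTCNNGAA on both strands, and matches may overlap. Hspa1a lies on the minus strand at chr17:34972107-34972406, Hspa1b on the minus strand at chr17:34959189-34959488, Hsph1 on the minus strand at chr5:149636287-149636586, and Chordc1 on the plus strand at chr9:18292017-18292316.

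Hspa1a: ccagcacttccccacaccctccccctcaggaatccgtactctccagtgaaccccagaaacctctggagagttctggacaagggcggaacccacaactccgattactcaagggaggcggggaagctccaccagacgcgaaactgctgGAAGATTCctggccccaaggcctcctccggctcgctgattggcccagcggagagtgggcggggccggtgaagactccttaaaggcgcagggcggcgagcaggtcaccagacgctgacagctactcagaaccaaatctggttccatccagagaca

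Hspa1b: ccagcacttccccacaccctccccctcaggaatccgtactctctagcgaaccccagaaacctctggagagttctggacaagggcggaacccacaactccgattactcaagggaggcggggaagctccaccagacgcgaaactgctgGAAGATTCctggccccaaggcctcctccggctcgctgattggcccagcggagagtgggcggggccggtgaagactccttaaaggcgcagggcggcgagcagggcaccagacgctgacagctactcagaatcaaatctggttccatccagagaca

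Hsph1: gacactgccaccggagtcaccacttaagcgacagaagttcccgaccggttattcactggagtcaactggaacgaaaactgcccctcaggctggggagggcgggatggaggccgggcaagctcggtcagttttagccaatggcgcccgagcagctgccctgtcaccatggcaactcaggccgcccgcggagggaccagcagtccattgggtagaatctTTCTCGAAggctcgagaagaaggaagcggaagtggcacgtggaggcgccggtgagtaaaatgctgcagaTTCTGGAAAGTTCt

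Chordc1: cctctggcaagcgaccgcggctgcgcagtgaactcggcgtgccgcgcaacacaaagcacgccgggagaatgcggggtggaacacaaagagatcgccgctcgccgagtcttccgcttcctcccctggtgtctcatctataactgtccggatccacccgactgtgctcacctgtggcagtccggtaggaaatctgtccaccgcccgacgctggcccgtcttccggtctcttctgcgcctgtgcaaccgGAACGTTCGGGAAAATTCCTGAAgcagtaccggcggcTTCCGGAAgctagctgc

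The Hspa1a and Hspa1b promoters were alike at 296 of 300 positions and each held 1 match, Hsph1 held 3 and Chordc1 5. Of 14 promoters of the 12 higher heat shock genes (10 genes had one in the table), 7 held a match (50%), and so did 7 of 16 promoters of the members that did not pass (43.8%). Over all 20611 promoters of measured genes 13.7% did, and over the 430 promoters of all genes higher at night 12.3%. A match is a description of letters and not a site.

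**Figure D3:**
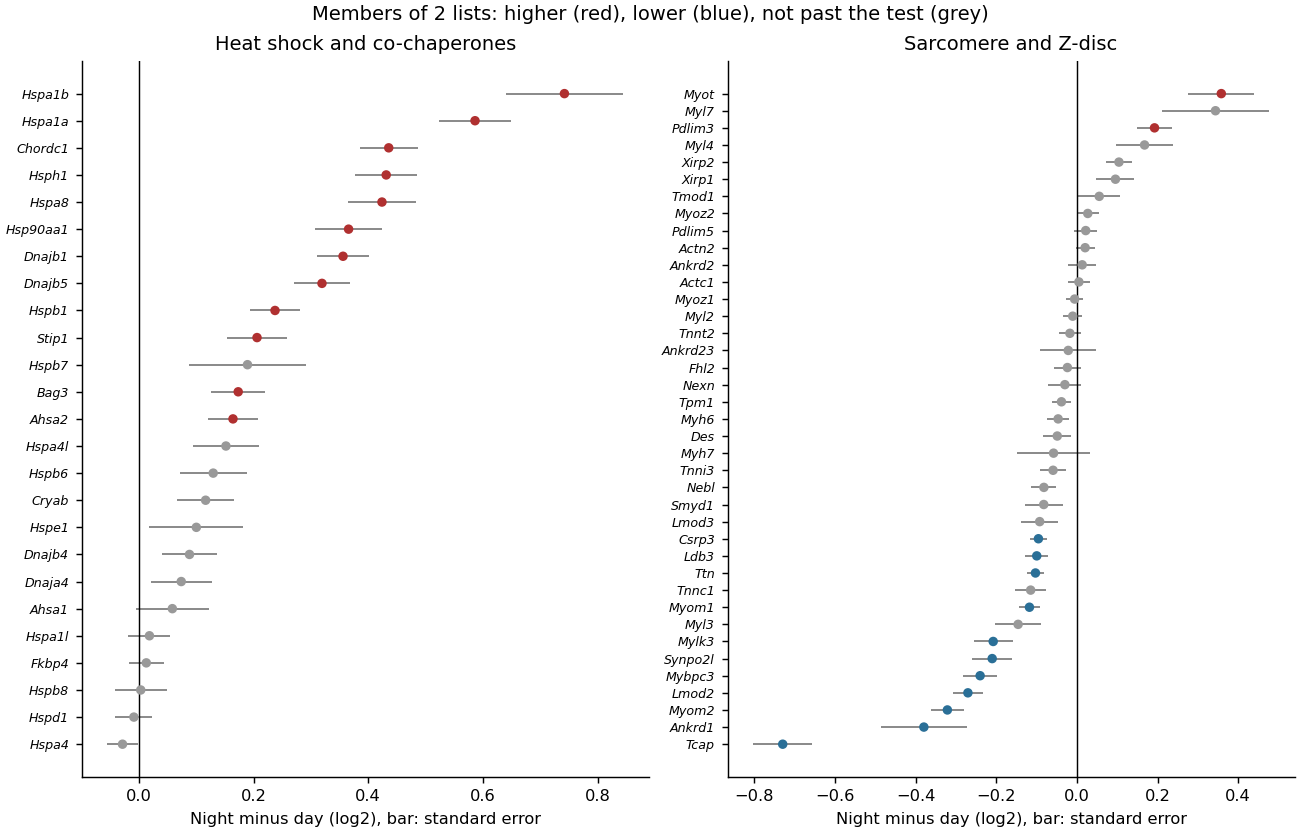
Night minus day difference (log2, x axis) with its standard error for every measured member of the heat shock list (left) and of the sarcomere and Z-disc list (right). Red points were higher at night, blue lower, and grey did not pass the test. The heat shock genes lie almost wholly to the right of 0, and most sarcomere genes to the left.

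The list of RNA-binding proteins that respond to temperature or shape splicing had 3 of 23 measured members lower at night and 0 higher (median -0.03). Called members made up 13%, against 4.39% over all genes. Cirbp, the cold-inducible RNA-binding protein, had day values from -0.0401 through 0.171 to 0.284 and night values from -0.493 through -0.253 to 0.0401. In 11 of 12 night arrays it was below every day array, and the difference was -0.42 ± 0.04 (1.33-fold lower, adjusted p = 3.50e-06). Srsf5, described above, and Hnrnpdl (-0.35 ± 0.05, 1.27-fold, adjusted p = 0.000105) were the others. The remaining measured SR genes, Srsf1, Srsf2, Srsf3, Srsf4, Srsf6, Srsf9, Srsf10 and Srsf11, did not pass, with differences between -0.10 (Srsf6) and 0.18 (Srsf3). Rbm3, Srsf7, Clk3 and Hnrnpa1 had no probe set of a single gene.

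Folding genes of the endoplasmic reticulum gave 5 higher and 0 lower of 26 (median 0.03, 19.2% called against 4.39% over all genes). They were the sensor Atf6 (0.26 ± 0.04), Herpud1 (0.22 ± 0.03), Dnajc3, the transcription factor Xbp1 and the degradation factor Edem1. The count fell to 3 without ZT03 replicate 3, ZT03 replicate 4, ZT07 replicate 3 or ZT11 replicate 2. Proteasome subunits showed 0 higher and 0 lower of 32 in limma's test (median -0.03).

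Of 27 measured genes of glucose uptake, glycolysis and pyruvate entry, 7 were lower and 1 higher (median -0.07). That is 29.6% called, against 4.39% over all genes. Pdk4, the kinase that shuts pyruvate dehydrogenase and so spares glucose, had day values from -0.469 through 0.420 to 1.28 and night values from -1.17 through -0.361 to 0.236. The phases overlapped, with 5 of 12 night arrays below all day arrays, and the difference was -0.93 ± 0.14 (1.91-fold, adjusted p = 0.000219). It was large at ZT15 against ZT03 and at ZT19 against ZT07 (-1.30 and -1.39) and small at ZT23 against ZT11 (-0.11).

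Txnip, which limits glucose uptake, was 1.64-fold lower (-0.71 ± 0.13, adjusted p = 0.00187), with most of the difference at ZT15 against ZT03 (-1.44). Pdp1, the phosphatase that opposes the PDK kinases, was 1.17-fold lower, Pfkm, the muscle phosphofructokinase, 1.16-fold, Pfkfb3, which makes its activator, 1.13-fold, Hk2 (hexokinase 2) 1.09-fold and the glucose transporter Slc2a1 1.08-fold. The higher gene was Slc16a1, a lactate and pyruvate transporter (0.24 ± 0.04, 1.18-fold, adjusted p = 0.00114).

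Fatty acid uptake, oxidation and uncoupling gave 4 lower and 0 higher of 35 (median -0.02), and 6 lower without the 3 arrays of highest SD. With all arrays 11.4% were called, against 4.39% over all genes. Ucp3, the mitochondrial uncoupling protein of muscle, had day values from -0.0511 through 0.419 to 1.11 and night values from -0.834 through -0.377 to 0.437. In 10 of 12 night arrays it was below every day array, and it was 1.72-fold lower (-0.78 ± 0.14, adjusted p = 0.00146). Cpt1a, which admits fatty acids to mitochondria, was 1.34-fold lower, and the oxidation genes Etfa and Hadha 1.11-fold and 1.07-fold. The tricarboxylic acid cycle list had 0 called of 17, and oxidative phosphorylation 3 higher (Ndufa8, Cox6a1 and Cox6a2) and 1 lower (Ndufa9) of 46 (8.7% called). Across single arrays left out, the lower count in oxidative phosphorylation was between 0 and 2.

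The glycogen list had 3 higher and 1 lower of 17 (median 0.04, 23.5% called against 4.39% over all genes). The higher genes were all targeting subunits that bring protein phosphatase 1 to glycogen: Ppp1r3c (0.49 ± 0.07, 1.41-fold, adjusted p = 0.000269), Ppp1r3b (0.45 ± 0.04, 1.37-fold, adjusted p = 2.31e-06) and Ppp1r3a (0.26 ± 0.06, 1.2-fold, adjusted p = 0.00970). They were not alike over the pairs. Ppp1r3c had 0.01, 0.56 and 0.90, while Ppp1r3b had 0.61, 0.55 and 0.20 and Ppp1r3a 0.45, 0.43 and -0.11. Pygb, the brain form of glycogen phosphorylase, was 1.12-fold lower.

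Insulin and growth factor signalling had 5 lower and 0 higher of 31 (median -0.03, 16.1% called against 4.39% over all genes). Insr, the insulin receptor, had day values from 0.000308 through 0.0820 to 0.340 and night values from -0.175 through -0.0997 to -0.000308. It was lower in every night array by a narrow gap (-0.21 ± 0.03, 1.16-fold, adjusted p = 0.000107). The IGF-1 receptor Igf1r was 1.2-fold lower, the PI3 kinase inhibitor Pik3ip1 1.28-fold, the catalytic subunit Pik3ca 1.11-fold and the GLUT4 trafficking regulator Tbc1d4 1.11-fold. The count fell to 3 without ZT03 replicate 4, ZT07 replicate 3, ZT11 replicate 3, ZT15 replicate 2 or ZT19 replicate 1. The higher count was 1 or 2 without any of 10 arrays. Tbc1d4 was lost without any of 18 arrays.

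The list of atrophy ligases, FOXO factors and autophagy genes had 5 lower and 0 higher of 26 (median -0.04), and 4 lower and 1 higher without the 3 arrays of highest SD. With all arrays 19.2% were called, against 4.39% over all genes. Fbxo32 (atrogin-1), a muscle ubiquitin ligase induced by FOXO factors, had day values from 0.00114 through 0.170 to 0.418 and night values from -0.536 through -0.335 to -0.00114. No night array reached a day array, by a narrow gap, and Fbxo32 was 1.42-fold lower (-0.50 ± 0.05, adjusted p = 7.53e-06) with similar differences at the 3 pairs (-0.51, -0.40 and -0.60). Trim63 (MuRF1), the other muscle ligase, was 1.32-fold lower, the autophagosome gene Gabarapl1 1.30-fold, Atg14 1.19-fold and Atg7 1.10-fold.

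Sarcomere and Z-disc genes had 11 lower and 2 higher of 39 (median -0.05), and the ventricular cardiomyocyte markers 1 lower (Ryr2) and 0 higher of 12 (median -0.04, negative in 11 of 12). Their called shares were 33.3% and 8.33%, against 4.39% over all genes. Tcap, which caps titin at the Z-disc, was 1.66-fold lower (-0.73 ± 0.07, adjusted p = 3.50e-06) but had pair differences of 0.90, -1.19 and -1.90. The M-band gene Myom2 was 1.25-fold lower (-0.32 ± 0.04, adjusted p = 4.50e-05), the thin filament gene Lmod2 1.21-fold, the myosin-binding protein Mybpc3 1.18-fold and titin (Ttn) 1.07-fold. Ankrd1, Csrp3, Ldb3, Myom1, Mylk3 and Synpo2l were the other lower genes. Myot (1.28-fold) and Pdlim3 (1.14-fold), both of the Z-disc, were higher. The myosin, actin and troponin genes Myh6, Myh7, Myl2, Myl3, Actc1, Tnnt2, Tnni3 and Tnnc1 did not pass the test.

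Calcium cycling and adrenergic signalling gave 5 lower and 0 higher of 27 (median -0.05, 18.5% called against 4.39% over all genes). They were the sodium-calcium exchanger Slc8a1 (1.22-fold, adjusted p = 0.000377), the calcium release channel Ryr2 (1.08-fold), the phosphodiesterase Pde3a (1.16-fold), the calcium channel inhibitor Rrad (1.32-fold) and the channel Cacna1c (1.09-fold). Rrad was uneven, with -1.27, -0.70 and 0.77 at the 3 pairs. The Cacna1c call was lost without any of 18 arrays. Of 28 other ion channel and connexin genes 14.3% were called. Kcnj5 and Kcnj12 were higher and Kcnd2 and Kcnab1, a potassium channel and a subunit, lower. Of these, 1 was higher without any of 15 arrays.

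Matrix genes had 8 lower and 2 higher of 36 (median -0.04, 27.8% called against 4.39% over all genes). The lower genes were collagens (Col1a1, Col3a1, Col4a1, Col4a2, Col6a2, Col6a3 and Col15a1) and the metalloproteinase Mmp14, led by Col4a2 (-0.38 ± 0.06, 1.30-fold, adjusted p = 0.000683) and Col3a1 (-0.32 ± 0.05, 1.25-fold, adjusted p = 0.000708). The higher genes were the small proteoglycans Bgn (1.24-fold) and Dcn (1.14-fold). Fibroblast markers were thus split, with Col1a1 and Col3a1 lower and Dcn and Pi16 higher of 12 (33.3% called).

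**Figure D4:**
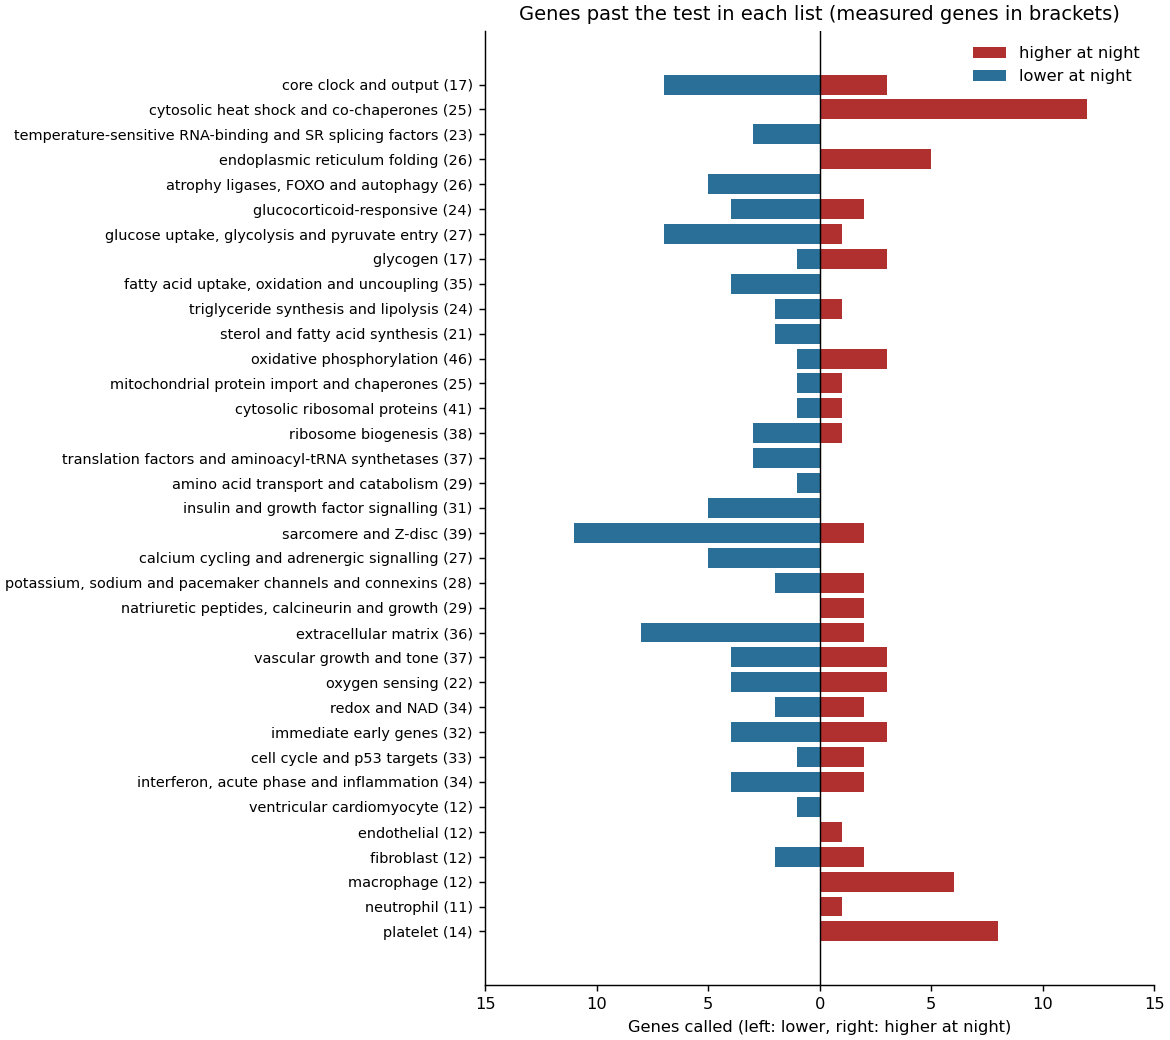
Number of genes called in each list with at least 1 call, lower at night to the left and higher to the right of 0 (x axis); lists are on the y axis with their measured genes in brackets. The longest bars are 12 higher genes in the heat shock list and 11 lower genes in the sarcomere and Z-disc list. Over all genes 4.39% were called.

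Of 14 measured platelet markers 8 were higher and 0 lower, all 14 had positive differences, and the median was 0.26 against 0.002 over all genes. Their called share was 57.1%, against 4.39% over all genes. The median of the list lay between -0.158 and -0.0341 on the 12 day arrays and between -0.0300 and 0.574 on the 12 night arrays with the highest on ZT15 replicate 1, so all night arrays lay above all day arrays. In bulk tissue, more cells of a type and more RNA per cell cannot be told apart. Red cell markers give no second measure of blood here, since only 1 of the 7 was measured and it did not pass the test. The part of platelet RNA in other differences was not tested.

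Ppbp was the most different gene in the higher direction. Its day values ran from -0.606 through -0.230 to -0.0397 and its night values from 0.0397 through 1.495 to 3.33. All night arrays were above all day arrays, but night arrays were spread widely, and 2 at ZT15 (0.0397 and 0.162) were close to the day values. The difference was 1.70 ± 0.29 (3.24-fold, adjusted p = 0.000949).

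Of the other platelet markers, the glycoproteins Gp9 (1.51-fold) and Gp6 (1.30-fold), Nrgn (1.39-fold), Tubb1 (1.21-fold) and Pf4 (1.19-fold), which encodes a further platelet chemokine, were higher. Itgb3, the beta-3 integrin, and F2rl2, a thrombin receptor, were each 1.15-fold higher. Leaving out 1 array cut the platelet count to 4 or 5 for 13 of the 24 arrays, and without the 3 arrays of highest SD it was 4.

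Of 12 macrophage markers 6 were higher and 0 lower (median 0.14, 50% called against 4.39% over all genes). Differences were positive in 10 of the 12 and negative in 2, the lowest being -0.15. Csf1r, Cd68, Cd163, C1qc, Fcgr1 and Cx3cr1 did not pass the test. Lyve1, found on resident macrophages and on lymphatic endothelium, was 1.48-fold higher (0.57 ± 0.06, adjusted p = 4.08e-06), with differences of 0.93, 0.77 and -0.000662 at the 3 pairs. C1qb (1.32-fold) and C1qa (1.13-fold), subunits of complement C1q, the mannose receptor Mrc1 (1.14-fold), Adgre1 (1.15-fold), which encodes F4/80, and Timd4 (1.08-fold) followed. The median of the list lay between -0.270 and 0.0186 on day arrays and between -0.0125 and 0.218 on night arrays. The count was 2 or 3 without any of 15 of the 24 arrays and 3 without the 3 arrays of highest SD.

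Markers of other cell types had fewer calls. Endothelial markers had 1 higher of 12 (Eng) and neutrophil markers 1 higher of 11 (Lcn2). These are shares of 8.33% and 9.09%, against 4.39% over all genes. Atrial, smooth muscle and pericyte, lymphocyte, adipocyte, skeletal muscle, lung, thymus, nerve and mesothelial markers, and the 1 measured red cell marker, had 0 higher and 0 lower. The atrial list had the largest median among these, 0.12, positive in 8 of 10 genes.

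**Figure D5:**
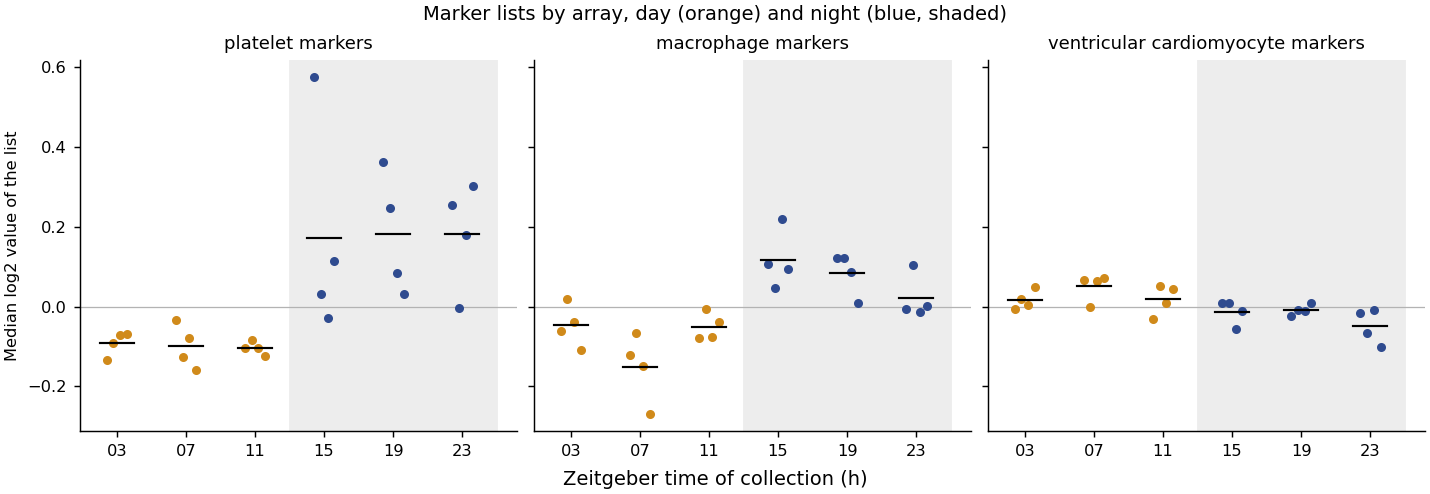
Median of each marker list on each array (log2, y axis) against zeitgeber time (h, x axis) for platelet, macrophage and ventricular cardiomyocyte markers; points are arrays (day orange, night blue), lines the means of 4 arrays. The platelet medians of the night arrays run up to 0.574 and all 12 of them lie above every day array, while the ventricular medians of both phases overlap.

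Hormone- and activity-responsive lists moved in both directions. Of 24 genes that respond to glucocorticoids 2 were higher (Cdkn1a and Lcn2) and 4 lower (Per1, Klf9, Klf15 and Nfkbia). That is 25% called, against 4.39% over all genes. Without ZT11 replicate 4, 4 were higher. Klf9 and Klf15, Krüppel-like factors, were 1.23-fold and 1.22-fold lower, with the largest differences at ZT23 against ZT11 (-0.82 and -0.76).

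Of 32 immediate early genes 3 were higher and 4 lower (median -0.05, 21.9% called against 4.39% over all genes). Nr4a1, an orphan nuclear receptor gene induced by activity, had day values from -0.546 through 0.615 to 1.72 and night values from -0.502 through -0.341 to 0.197. The night range lay within the day range, and the difference was -0.77 ± 0.20 (1.70-fold lower, adjusted p = 0.0285). It was lost without ZT03 replicate 3, ZT07 replicate 4, ZT11 replicate 3, ZT11 replicate 4 or ZT23 replicate 2, and without the 3 arrays of highest SD. Gadd45b, Zfp36 and Myc were lower, and Ier3 (1.53-fold), Zfp36l1 and Klf4 higher. The lower count was 7 without ZT03 replicate 1, and without the 3 arrays of highest SD 2 were higher and 2 lower.

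Of 22 oxygen-sensing genes 3 were higher and 4 lower, and 2 lower without any of 7 of the arrays. With all arrays 31.8% were called, against 4.39% over all genes. Egln3, a prolyl hydroxylase that marks HIF for degradation, was 1.71-fold higher (0.78 ± 0.13, adjusted p = 0.00120), with -0.02 at ZT15 against ZT03 and 1.13 and 1.22 at the later pairs. The collagen prolyl hydroxylases P4ha1 (1.32-fold) and P4ha2 (1.13-fold) were higher and Hif1a (1.09-fold) lower. Of 34 interferon, acute phase and inflammation genes, Iigp1 (1.5-fold) and Cxcl9 (1.40-fold), both induced by interferon gamma, and Stat3 (1.17-fold) were among 4 lower, and the acute phase genes Serpina3n and Lcn2 were higher. Of this list 17.65% was called.

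Vascular genes had 3 higher and 4 lower of 37 (18.9% called against 4.39% over all genes). The angiotensin-converting enzyme Ace was 1.2-fold higher (0.26 ± 0.04, adjusted p = 0.000178), and the angiotensin receptor Agtr1a 1.2-fold lower (-0.26 ± 0.04, adjusted p = 0.000270). Lists of ribosomal proteins (1 higher, 1 lower of 41), ribosome biogenesis (1 and 3 of 38), translation (0 and 3 of 37), mitochondrial import (1 and 1 of 25), amino acids (0 and 1 of 29), sterol synthesis (0 and 2 of 21), triglycerides (1 and 2 of 24), natriuretic peptides and calcineurin (2 and 0 of 29), redox and NAD (2 and 2 of 34) and the cell cycle (2 and 1 of 33) had 1 to 4 calls each. Their called shares ran from 3.45% (amino acids) and 4.88% (ribosomal proteins) to 11.8% (redox and NAD) and 12.5% (triglycerides), against 4.39% over all genes. Counts moved when single arrays were left out. Without ZT15 replicate 1 the higher count rose to 6 in redox and NAD, 5 in the cell cycle and 3 in mitochondrial import. In ribosomal proteins the higher count was 0 or 2 without any of 18 arrays. The lower count was 1 without any of 12 arrays in ribosome biogenesis and without any of 3 in translation, any of 19 in sterol synthesis and any of 16 in triglycerides. Without the 3 arrays of highest SD, redox and NAD had 6 higher and 0 lower. In mitochondrial import the lower gene was the protease subunit Clpx (1.30-fold).

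Of 478 microRNA genes 8 were called (1.67%, below the 4.39% over all genes), all lower at night. The probe sets report the gene or its hairpin, so the mature forms were not measured. The guide strands of let-7b and let-7c are shown because they share a seed, and those of miR-99a because its gene differed most and lies beside that of let-7c. Sequences are from RefSeq (GRCm38.p6), with the seed (bases 2 to 8) in capitals.

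miR-99a-5p: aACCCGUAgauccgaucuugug

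let-7c-5p: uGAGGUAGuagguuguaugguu

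let-7b-5p: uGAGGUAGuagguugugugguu

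Both let-7 forms have the same seed and are alike at 21 of 22 bases. On chromosome 16 the mature let-7c begins 732 bases after the start of mature miR-99a (chr16:77598940-77598961 and chr16:77599672-77599693, both plus strand), while let-7b lies at chr15:85707325-85707346 on the plus strand. Mir99a had day values from -0.235 through 0.415 to 0.909 and night values from -0.499 through -0.0516 to 0.0585, with 4 of 12 night arrays below all day arrays. Its difference was -0.52 ± 0.07 (1.44-fold, adjusted p = 4.50e-05), and that of Mirlet7c-1 -0.41 ± 0.08 (1.33-fold, adjusted p = 0.00615). Both were lower at ZT15 against ZT03 (-0.98 and -1.004) and at ZT19 against ZT07 (-0.61 and -0.42) but not at ZT23 against ZT11 (0.02 and 0.20). Mir99ahg, the long noncoding gene named for this cluster, was 1.24-fold lower (-0.31 ± 0.05, adjusted p = 0.00120); it was chosen after its values were seen. Mir1192 (1.29-fold), Mir677 (1.23-fold), Mir5125 (1.22-fold), Mir23b (1.2-fold), Mirlet7b (1.09-fold) and Mir130b (1.09-fold) were the others. The Mir130b call was lost without any of 16 arrays, that of Mir5125 without any of 10 and that of Mir677 without any of 6.

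The E-box CACGTG, the site of CLOCK and BMAL1, was searched in all promoters in the table. It stood in 83 of 561 promoters of genes lower at night (14.8%), in 40 of 430 of genes higher at night (9.3%) and in 8.07% of all 20611 promoters of measured genes. Of 21 promoters of the core clock list 6 held it (28.6%), and these belonged to Bhlhe41, Ciart, Cry1, Per1 and Tef. No test was made of these shares. The promoter of Cry1 is shown as the clock gene without overlap that holds the motif (chr10:85185005-85185304, minus strand, E-box in capitals).

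Cry1: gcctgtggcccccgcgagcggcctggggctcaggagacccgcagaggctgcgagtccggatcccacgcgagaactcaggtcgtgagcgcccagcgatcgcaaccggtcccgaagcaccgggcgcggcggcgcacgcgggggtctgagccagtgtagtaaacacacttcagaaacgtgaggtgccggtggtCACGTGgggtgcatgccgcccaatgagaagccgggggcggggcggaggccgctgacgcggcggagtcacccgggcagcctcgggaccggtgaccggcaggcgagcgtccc

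For D-box (TTANNTAA), cAMP response element (TGACGTCA) and glucocorticoid response element (ACANNNTGT), the shares among genes lower at night were 2.85%, 2.67% and 4.1%, against 5.19%, 2.32% and 6.03% of all promoters. Among genes higher at night they were 3.49%, 3.26% and 3.95%. For the ROR half-site AGGTCA the share was 13.9% among lower genes and 15.6% among higher genes, against 14.5% of all promoters.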

How the data were processed

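Total RNA from 24 mouse hearts was measured on Affymetrix arrays, per the labels' protocols. The deposited values were read as log2 values each probe set being centred so that its median across arrays is 0; the base was not stated and is assumed. How the authors summarised and normalized them is not given in the sources used here. Probe sets of 1 gene symbol were averaged per gene, and probe sets of several or no genes were left out.

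Time point was a factor in limma 3.58.1 (R 4.3.3, 18 residual degrees of freedom), with Benjamini-Hochberg adjustment over 22180 genes and a threshold of 0.05. Unevenness over the 3 opposite pairs, and differences within night or day, were moderated F tests. The scripts were tested on simulated data. The number of arrays limits the precision.

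Genes named are the 15 largest called differences in each direction, all core clock genes, up to 5 called members of each list, called markers and microRNAs, the widest gaps, and the most even and uneven genes. Predicted genes were left out of the choices by size, gap and evenness. Other list members are given as examples. Members and lists were chosen with earlier results of these data known. The median or the most variable probe set, quantile normalization, array weights, left-out arrays or times and other thresholds were tried.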

Additional observations from a re-analysis of the deposited data

Results flagged for a closer look

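Among 258 groups of 4 arrays examined over 42 genes and the array SDs, 17 held an array far from the other 3, with a gap to its nearest neighbour above Dixon's critical share of the group's range; chance flags about 1 in 20 groups. At ZT15, replicate 1 stood apart in Gp9 (0.914 of the range), Nr1d2 (0.896), P2ry1 (0.832) and Iigp1 (0.830), and in its SD over all probe sets (0.8291). At ZT23, replicate 4 stood apart in Hspa1a (0.958), Ciart (0.881) and Ier3 (0.865), and replicate 3 in Nfil3 (0.939). At ZT03, replicate 4 stood apart in Dbp (0.865) and Lncpint (0.833), and replicate 1 in Plek (0.853). At ZT19, replicate 1 stood apart in Cry2 (0.938) and Nr4a1 (0.931), and replicate 4 in Nr1d2 (0.871). At ZT11, replicate 1 was low in Srsf5 (0.966), and at ZT07 the SD of replicate 4 stood apart (0.831).

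In 23 of these genes the differences at the 3 opposite pairs were not equal in limma's F test, with these adjusted p-values. For the clock they were 3.45e-13 (Arntl), 2.08e-12 (Dbp), 3.65e-12 (Per3), 1.49e-09 (Nr1d2), 1.9e-09 (Clock), 6.67e-09 (Ciart), 1.27e-07 (Tef), 5.31e-07 (Hlf), 1.22e-05 (Npas2), 1.26e-05 (Nr1d1), 1.65e-05 (Nfil3), 1.68e-05 (Per1), 4.22e-05 (Cry2), 9.44e-05 (Bhlhe41), 0.000283 (Bhlhe40) and 0.00238 (Cry1). For the other genes they were 1.9e-09 (Tcap), 8.13e-08 (Fmo2), 0.000397 (Lyve1), 0.000417 (Ier3), 0.0112 (Angptl7), 0.0229 (Lncpint) and 0.0448 (Pdk4).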

How the results depend on the processing

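The count of called genes was 230 (83 higher, 147 lower) without ZT19 and ZT07, 444 (186 and 258) at an adjusted p below 0.01, and 215 (95 and 120) with at least a 1.2-fold difference. In a fit of 2 groups of 12 arrays with no time point term, 698 genes were called, 686 of them among the 973. That fit counts differences between the times of a phase as spread. Without the 3 arrays of highest SD, 130 genes differed within the night and 38 did not overlap between phases; fewer arrays make non-overlap easier. With single arrays left out, called genes numbered 765 (without ZT11 replicate 3) to 1243 (without ZT15 replicate 1), higher 332 to 614, lower 433 to 688, uneven 513 to 683, within the night 159 (without ZT15 replicate 1) to 282, within the day 200 (without ZT11 replicate 4) to 337, and non-overlapping 15 to 37 (without ZT11 replicate 1). Without ZT15 and ZT03, 1150 genes were called, 597 of the 973 among them, and 22 of the 973 had the opposite sign; without ZT23 and ZT11, 879 were called, 529 among the 973, and 10 had the opposite sign. Without ZT19 and ZT07, 217 of the 973 were called again. Signs turned without ZT15 and ZT03 for Cry2 (-0.24), Herpud1 (-0.18), Hif1a (0.025), Hlf (-0.27), Lonrf1 (-0.073), Npas2 (0.38), Rrad (0.034), Slc41a3 (0.23), Slc43a3 (-0.058), Sox4 (0.24), Tbc1d4 (0.015) and Tef (-0.25). They turned without ZT23 and ZT11 for Arntl (-0.84), Ciart (0.027), Clock (-0.40), Dbp (0.20), Per1 (0.10) and Per3 (0.41). Each of these values is the mean of the pair differences that were left, so the turned signs follow from pairs of unequal difference. Why the pairs differ was not tested. Same-numbered arrays had a median correlation of deviations of -0.010 over 60 pairs, 5 of them over 0.1, and 8 of 24 arrays matched their own number best, so the numbers were not taken as pairs. With the replicate block 912 genes were called (387 higher, 525 lower), 864 of them among the 973, with 574 uneven, 212 within the night and 269 within the day.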
